A study of Homo sapiens with 4 samples.

Results

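Mitochondrial ribosomal proteins were examined here through every probe set whose only platform gene symbol begins with MRPL or MRPS and a number. The rule found 77 symbols on 142 probe sets, among 54613 probe sets other than controls. Of these symbols, 75 are protein‐coding genes, 48 for the large subunit (MRPL) and 27 for the small subunit (MRPS) by name. The other symbols are the antisense transcript MRPL20-AS1 and the pseudogene MRPL45P2. A further 4 probe sets that carry such a symbol beside another one were left out. The probe set whose log2 signal averaged highest across the arrays represented each gene, and all 75 of these representatives lay among the kept, brighter probe sets of the array.

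The cells were RCM‐1, a human colorectal cancer line from a well‐differentiated rectal adenocarcinoma, whose sheets form fluid‐filled domes. They were exposed to 1 mM methylthioacetic acid (MTA) for 0, 6, 12 or 18 h, and the MTA medium was then replaced by vehicle medium until harvest at 24 h. The arrays of 6, 12 and 18 h therefore also stand for 18, 12 and 6 h without MTA, and length of exposure and time since removal cannot be told apart. The vehicle was acetonitrile. The sources do not say outright whether the 0 h cells also stayed in culture to 24 h. Each time has 1 array of 1 RNA sample, so there are no replicates, and no test could be made.

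Mitochondrial ribosomes translate the few messenger RNAs of the mitochondrial genome, which code for core subunits of the respiratory chain and of ATP synthase. Their RNAs come from mitochondrial DNA, whereas all their proteins are encoded in the nucleus, made on cytosolic ribosomes and imported. Some of these proteins have bacterial counterparts, and the others were gained by mitochondria. Colorectal epithelium relies on mitochondrial respiration, and proliferating cells make new mitoribosomes as they grow.

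The deposited values are MAS5 signals, which are fluorescence intensities on a linear scale. Values below are either such signals or log2 ratios of an MTA array to the 0 h array, where −1 is a signal lower by 2-fold. The 10505 genes that have a kept probe set had median log2 ratios of 0.11, −0.28 and −0.47 after 6, 12 and 18 h, so the arrays differ as a whole, and the ratios below include this shift unless they are given relative to it. The poly‐A control transcripts averaged 0.20, 0.03 and −0.25 on this scale at 6, 12 and 18 h. The hybridization controls averaged 0.02, −0.27 and −0.05, so at 12 h they lay close to the median of all genes. The part of the shift that lies in the scaling of the arrays was not tested, and a lower level in all cells cannot be told apart from fewer cells with the transcript. The only measure of error is the difference between 2 probe sets of the same gene on the same arrays. At 18 h it had an SD of 0.373 over the 25 member genes with several kept probe sets, and of 0.479 over 4676 genes of all kinds. Of 8 epithelial markers all were on kept probe sets, among them EPCAM, KRT8 and KRT20, although CDX2 was dim, with signals of 54.9 to 70.3. Of the markers of other cell types, the leukocyte gene PTPRC and the mesenchymal genes COL1A2 and VIM were not on kept probe sets, and the endothelial gene PECAM1 had signals of 28.6 to 53.0.

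MTA‐treated cells had lower signals of mitochondrial ribosomal protein genes than the 0 h cells, and the difference was larger with longer treatment. Over the 75 genes the median log2 ratio reached −0.14, −0.64 and −0.98 after 6, 12 and 18 h. Relative to the median of all genes, it was lower by 0.26, 0.36 and 0.51. The median at 18 h stayed below 0 under each of 6 scalings of the arrays, between −0.98 and −0.38.

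Nearly the whole gene group lay on the same side. The signal was below that of 0 h for 61 of the 75 genes at 6 h, for 74 at 12 h and for all 75 at 18 h with the deposited scaling, where the background was 37.7, 71.6 and 78.3% of all genes. With quantile normalization, 65 of the 75 were below 0 at 18 h, where the median of all genes was 0.01. At 18 h, 69 genes were below −0.5 (47.5% of all genes), 35 were below −1 (15.8% of all genes) and 2 were below −1.5 (3.19% of all genes). The count below −1 was 17 with poly‐A controls (7.47% of all genes), 5 with median centring (3.74%), 1 with quantile normalization (3.83%) and 1 with the trimmed mean (3.07%). At 12 h, 10 genes were below −1 with the deposited scaling (6.29% of all genes), and none was at 6 h (0.476% of all genes). No gene of the group was above 1 at 18 h, where 3.15% of all genes were.

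The spread between members was of moderate size. Their log2 ratios at 18 h ranged from −1.81 to −0.00, with quartiles of −1.20 and −0.74 and an SD of 0.34 between genes. The SD was 0.66 over all genes and 0.51 over genes in the middle of the members' signal range, but 0.20 over complex I genes and 0.12 over cytosolic ribosomal proteins. Members that follow each other in the order of ratios do not differ beyond the spread between probe sets.

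**Figure D1:**
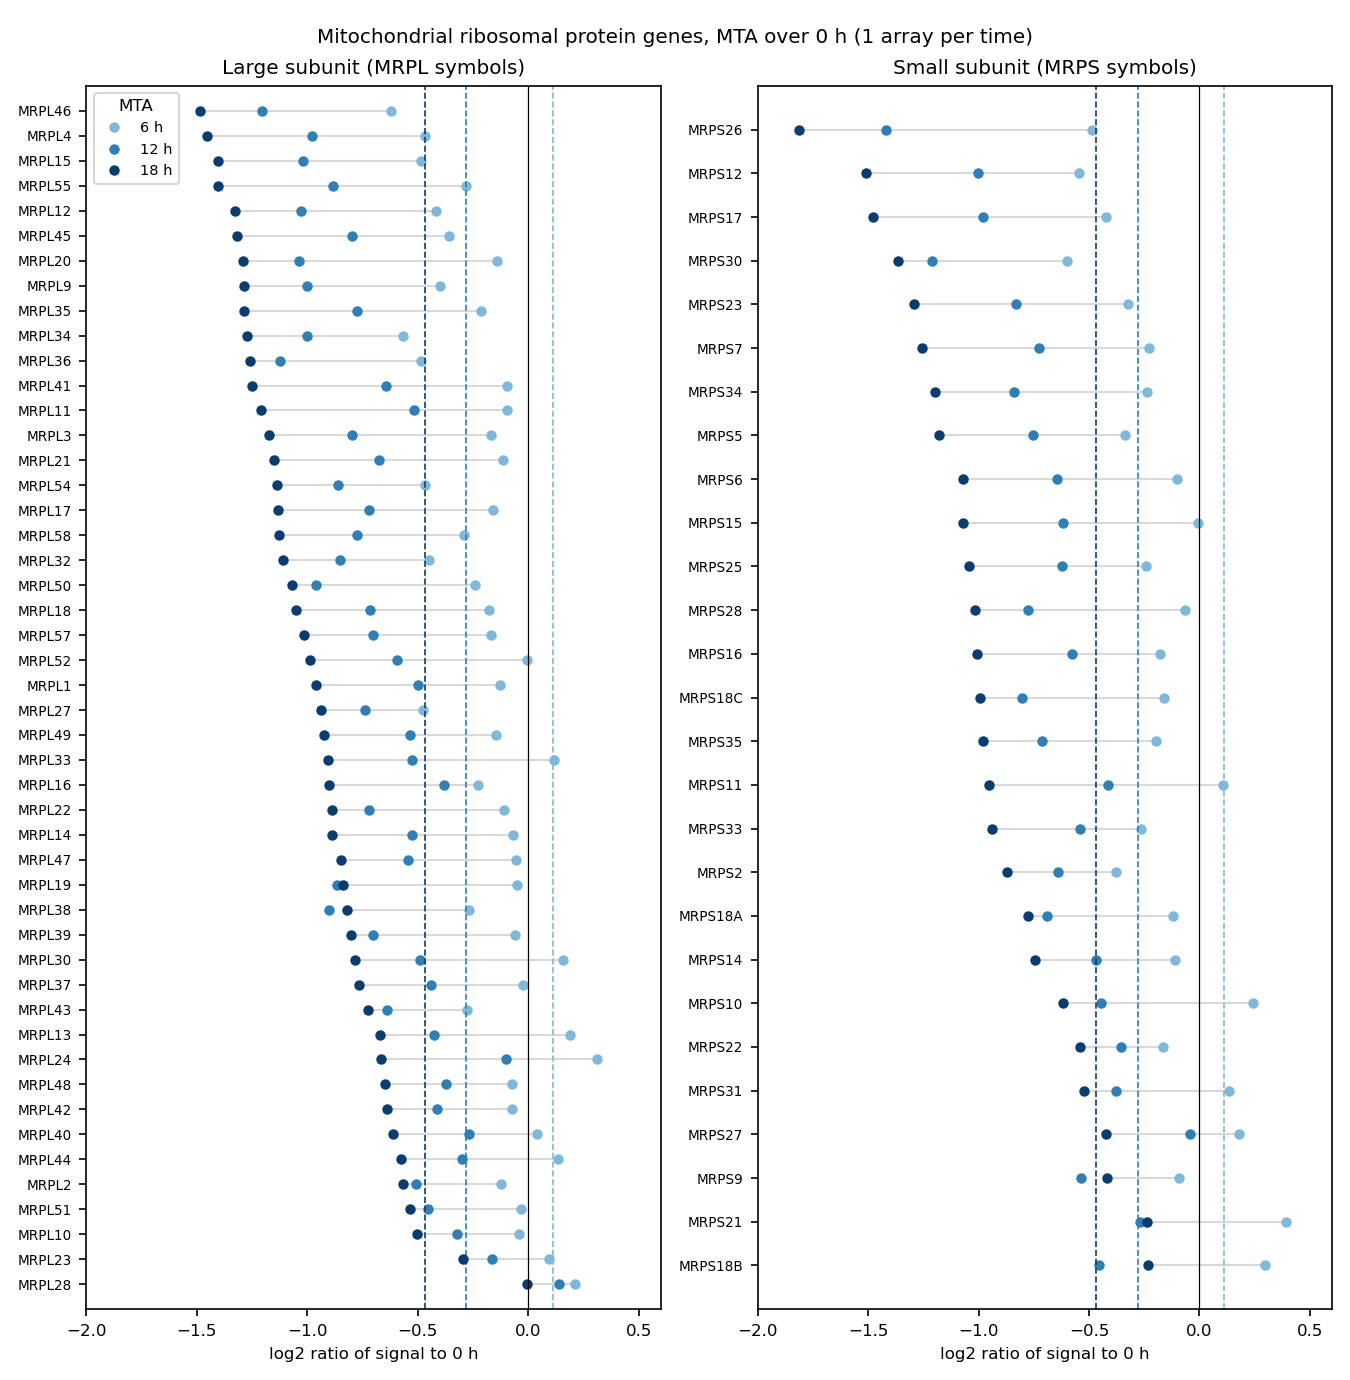
Log2 ratio of the signal after 6, 12 and 18 h of MTA to 0 h for each mitochondrial ribosomal protein gene, 1 point per gene and time (1 array each), with large‐subunit genes on the left and small‐subunit genes on the right, ordered by the 18 h ratio. Dashed lines mark the median of all genes at the same times (0.11, −0.28 and −0.47). With the deposited scaling all 75 points of 18 h lie at or below 0, while under other scalings up to 10 genes lie above it.

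With the deposited scaling, the time course had the same shape in most members. Signals were lower at 12 h than at 6 h for all 75 genes, and lower again at 18 h than at 12 h for 70 of them (67.6% of all genes met both conditions). The exceptions were MRPL19, MRPL38, MRPS18B, MRPS21 and MRPS9. A lower signal at every step, that at 6 h included, was found for 58 of the 75 genes (77.3%), against 27.5% of all genes. With other scalings it was found for at least 33 genes (quantile normalization or the trimmed mean, 11.6 and 11.5% of all genes). At most it was found for 55 genes (hybridization controls, 23.4% of all genes). The count of 70 became 38 with quantile normalization, against 2235 of all 10505 genes, and 65 with hybridization controls, against 5977. Neither shape was limited to the members, since 71.2% of cytosolic ribosomal protein genes were lower at every step and 93.8% of complex I genes were lower at both later steps, against 93.3% of the members. The median step was −0.14 between 0 and 6 h, −0.51 between 6 and 12 h, and −0.30 between 12 and 18 h, so the largest of the 3 lay between 6 and 12 h. This order depended on the scaling, since the largest step lay between 0 and 6 h with median centring (−0.26, against −0.12 and −0.13), quantile normalization, poly‐A controls and the trimmed mean, and between 12 and 18 h with hybridization controls (−0.52). All genes had median steps of 0.11, −0.39 and −0.20. At 6 h, 14 members were above 0, and 11 of these were above the median of all genes, among them MRPS21 at 0.39, MRPL24 at 0.31 and MRPS18B at 0.30. Of these 11, the second kept probe set was below 0 at 6 h in MRPS18B (−0.43), MRPL44 (−0.29), MRPS10 (−0.12) and MRPS31 (−0.10), while MRPS21 and MRPL24 have 1 probe set each.

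MRPS26, a small‐subunit protein with no bacterial counterpart, had the lowest ratio. Its signals were 517.3, 368.9, 193.4 and 147.5 at 0, 6, 12 and 18 h, which is a log2 ratio of −1.81 or a signal lower by 3.51-fold at the last time. MRPS12, the counterpart of the bacterial protein at the decoding centre that checks codon and anticodon pairing, had 2317, 1589, 1158 and 814.7 at 0, 6, 12 and 18 h, a ratio of −1.51. A second, dimmer probe set of MRPS12 had −1.61. Both genes were lower at each successive time.

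MRPL46, a large‐subunit protein of mitochondria, had signals of 1001, 650.2, 433.6 and 357.1 at 0, 6, 12 and 18 h, for a log2 ratio of −1.49. MRPS17, whose bacterial counterpart binds ribosomal RNA early in assembly, had 1754, 1309, 889.1 and 630.1, a ratio of −1.48. In both, the signal at 12 h was already lower than at 0 h by about the limit of 1, with ratios of −1.21 and −0.98. MRPL4, a core protein of the large subunit, had 474.3, 343.3, 240.9 and 173.2 at 0, 6, 12 and 18 h (−1.45), and its other kept probe sets had −1.60 and −0.97.

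The lowest 10 members were completed by MRPL15 and MRPL55, both at −1.40, MRPS30 at −1.36, MRPL12 at −1.33 and MRPL45 at −1.32. MRPS30 carries an MRPS name but sits in the large subunit of the human mitoribosome. Its signals were 1837, 1210, 793.3 and 713.1 at 0, 6, 12 and 18 h, and its further kept probe sets had −1.40 and −1.02. Their place among the lowest 10 is how they were chosen and is no further result.

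At the other end, MRPL28, a large‐subunit protein with a bacterial counterpart, had nearly equal signals throughout. They were 358.5, 414.8, 395.2 and 357.6 at 0, 6, 12 and 18 h, with a log2 ratio of −0.00 at 18 h, and it was the 1 member above 0 at 12 h (0.14). Relative to the median of all genes, MRPL28 was higher by 0.46 at 18 h. MRPS21, the counterpart of a small bacterial protein near the binding site of the messenger RNA, had 1755, 2299, 1456 and 1491, a ratio of −0.24. Its signal at 6 h was the highest of the 4, with a ratio of 0.39. MRPS18B had 738.2, 907.9, 538.4 and 628.7 (−0.23), although a second kept probe set had −0.65.

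MRPL23 had a log2 ratio of −0.30 at 18 h, MRPS9 −0.42, MRPS27 −0.43, MRPL10 −0.50, MRPS31 −0.52, MRPL51 −0.53 and MRPS22 −0.54. These 7 genes and the 3 above are the members whose direction depended on the scaling of the arrays, since each was above 0 at 18 h under at least 1 of the 6 scalings. The other 65 genes were below 0 under all 6, and the share of all genes for which this holds was not counted. For MRPS22, mutated in a mitochondrial disease of infancy, all 4 kept probe sets lay between −0.75 and −0.54, so this milder ratio was alike across probe sets. Whether these probe sets measure the gene independently of each other was not examined.

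Between the 10 lowest and the 10 highest members lay 55 genes, with log2 ratios at 18 h between −1.29 for MRPS23 and −0.57 for MRPL2 and a median of −0.98. Of these, 25 were below −1 (15.8% of all genes) and 45 had a lower signal at every successive time (27.5% of all genes). Their range and the count of 25 follow from how the 2 ends were cut off and are no further result.

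**Figure D2:**
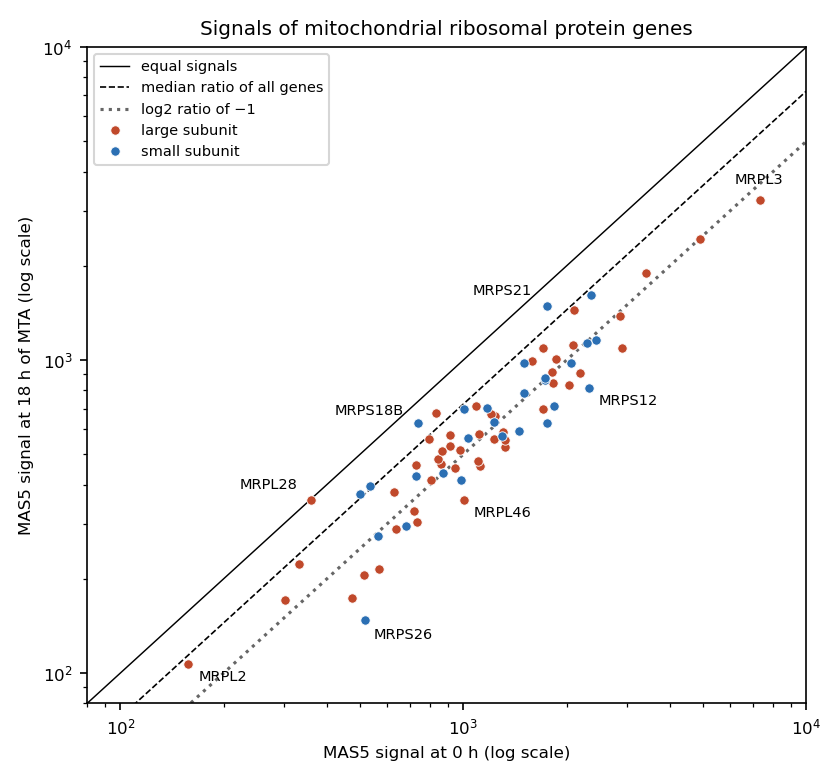
MAS5 signal after 18 h of MTA (vertical axis, log scale) against the signal at 0 h (horizontal axis, log scale) for the 75 genes, 1 point per gene and 1 array per time. With the deposited scaling the points lie on both sides of the dotted line of a log2 ratio of −1, 35 of the 75 below it, from MRPL2 (106.5 at 18 h and 157.6 at 0 h) to MRPL3 (3238 at 18 h and 7313 at 0 h), and MRPL28 lies on the line of equal signals.

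None of the members was represented by a dim probe set. The lowest signal of any representative probe set on any array was 106.5, whereas the lowest mean signal among kept probe sets was 34. MRPL3, a core protein near the peptidyl transferase centre, had signals of 7313, 6500, 4204 and 3238 at 0, 6, 12 and 18 h, for a log2 ratio of −1.18. MRPL57 had 4903, 4367, 3013 and 2427 (−1.01), MRPL47 had 3399, 3268, 2333 and 1892 (−0.85), and MRPS6 had 2432, 2263, 1556 and 1156 (−1.07). These are the members with the highest mean signals in their subunits, together with MRPS22 and MRPS21, and each of these 4 was lower at every successive time. Genes of all kinds with mean signals between 605.5 and 1316, the middle of the members' range, numbered 1526 and had a median of −0.58 at 18 h. Relative to this band the members were lower by 0.41.

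**Figure D3:**
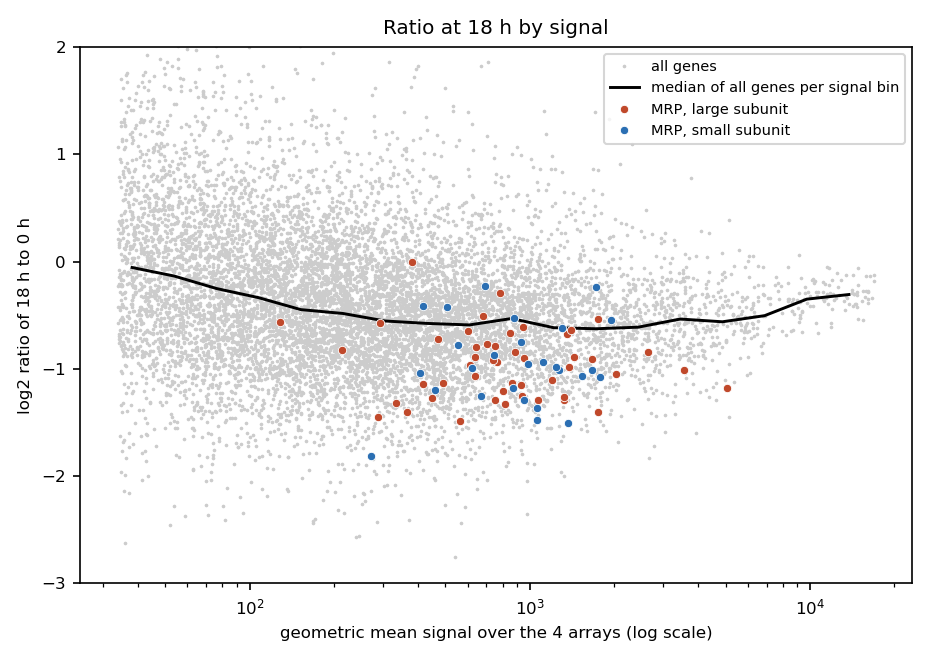
Log2 ratio of 18 h of MTA to 0 h (vertical axis) against the geometric mean signal over the 4 arrays (horizontal axis, log scale), with all genes in grey, their median per signal bin as a black line, and mitochondrial ribosomal protein (MRP) genes in colour. With the deposited scaling 69 of the 75 members lie below the median of all genes (−0.47), and 50 genes outside the vertical range are not drawn.

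Where a gene has several kept probe sets, as 25 do, the brightest and the second had ratios of the same sign at 12 and 18 h. At 6 h their signs were opposite in 11 of the 25 genes, and both were below 0 in 13. Of the 115 kept probe sets of the 75 genes, 113 were below 0 and 43 below −1 at 18 h, against 78.1 and 15.3% of all kept probe sets. The brightest and the second were both below 0 at 18 h in all 25 genes, as in 74.2% of such genes in general. The probe sets above 0 were the third brightest of MRPL30 (0.01) and the dimmest of MRPL57 (0.44), a gene whose other 3 had −1.01, −1.47 and −0.89.

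The size of the ratio differed between probe sets by over 0.5 in 5 genes. For MRPS23 the probe sets had −1.29 and −0.45, for MRPL35 −1.29 and −0.54, for MRPS25 −1.04 and −0.46, for MRPL19 −0.84 and −0.32, and for MRPL41 −1.25 and −0.74. In each of the 5 the dimmer probe set had the ratio nearer to 0. Over all 25 genes, the median was −1.01 for the brightest and −0.82 for the second probe sets, and the second was the lower in 13.

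**Figure D4:**
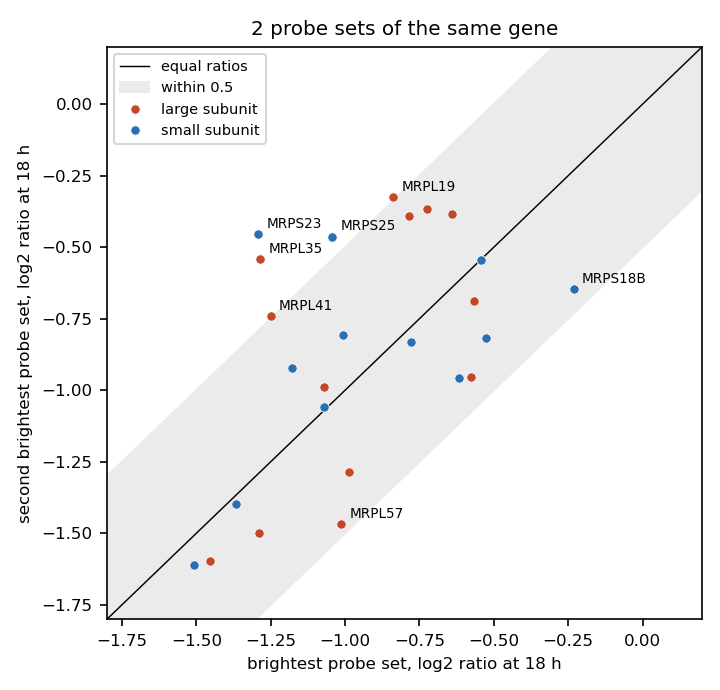
Log2 ratio of 18 h of MTA to 0 h on the second brightest kept probe set (vertical axis) against the brightest (horizontal axis) for the 25 genes with several kept probe sets, with the deposited scaling. The line marks equal ratios and the grey band differences within 0.5, outside of which lie MRPS23, MRPL35, MRPL41, MRPS25 and, just beyond its edge, MRPL19.

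The medians of the large and small subunits lay close together at each time. Large‐subunit genes had median log2 ratios of −0.14, −0.69 and −0.95 at 6, 12 and 18 h, and small‐subunit genes −0.16, −0.64 and −0.99. The difference of the medians, large minus small, was 0.03, −0.05 and 0.04. Its sign turned when a gene's kept probe sets were averaged, which gave −0.01, 0.01 and −0.01. At 18 h with the deposited scaling, 22 of 48 large‐subunit genes and 13 of 27 small‐subunit genes were below −1 (15.8% of all genes). The small subunit held both members below −1.5, and the SD between genes at 18 h was 0.32 in the large and 0.39 in the small subunit. No error of a difference between such medians is known from 1 array per time. Counting MRPS18A and MRPS30 with the large subunit, where they sit in the human particle, gave 0.03, −0.07 and 0.04.

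By origin, the 45 genes with a counterpart had a median log2 ratio of −1.01 at 18 h, and the 30 without had −0.93. With the deposited scaling 23 and 12 of them were below −1 (15.8% of all genes). Over both groups together, this count was 5 with median centring and 1 with quantile normalization. In the large subunit the medians were −1.01 with and −0.87 without a counterpart, and in the small subunit −1.01 and −0.96. These differences of medians are descriptions, without an error.

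Measured ratios of genes for neighbouring proteins of the particle were not equal. In the stalk, where translation factors dock, MRPL12 had signals of 1319, 987.6, 647.2 and 526.2 at 0, 6, 12 and 18 h (−1.33) and MRPL11 had 1104, 1031, 770.3 and 476.9 (−1.21), but MRPL10, which anchors the stalk, had 792.0, 768.4, 634.2 and 558.3 (−0.50). Around the exit of the peptide tunnel, MRPL45, which tethers the ribosome to the inner membrane, had −1.32 at 18 h, MRPL22 −0.89, MRPL47 −0.85, MRPL24 −0.67 and MRPL23 −0.30. MRPL24 was higher at 6 h, with 1138 at 6 h against 917.0 at 0 h, before its lower signals of 855.6 at 12 h and 577.3 at 18 h. Among the 3 paralogs of bacterial S18, MRPS18C had −0.99, MRPS18A −0.78 and MRPS18B −0.23 at 18 h. In the comparison by origin, MRPS18C was counted with a counterpart, and MRPS18A and MRPS18B among the genes without. The dimmer kept probe set of MRPS18B had −0.65 and that of MRPS18A −0.83. The distance of MRPS18B from the other paralogs therefore depended on the probe set. Differences as wide as those of the stalk exceed the SD between probe sets, but MRPL10, MRPL11 and MRPL12 each have only 1 kept probe set.

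The remaining symbols gave no protein. MRPL20-AS1, transcribed opposite MRPL20, had signals of 81.71, 67.53, 71.00 and 38.62 at 0, 6, 12 and 18 h, for a log2 ratio of −1.08, and MRPL20 itself had 2036, 1845, 991.3 and 833.3 (−1.29). The pseudogene MRPL45P2 had signals of at most 4.30, below the range of kept probe sets, and is given no ratio.

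Genes that work with the mitoribosome were lower as well, with a wider spread. Of 5 further mitoribosomal proteins without an MRP symbol, 4 were measured on kept probe sets by a single symbol. GADD45GIP1, a large‐subunit protein also known as CRIF1, had 611.6, 489.8, 373.3 and 211.8 at 0, 6, 12 and 18 h, for a log2 ratio of −1.53. CHCHD1 had −0.97, DAP3, a GTP‐binding protein of the small subunit, −0.66, and PTCD3 −0.35.

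Assembly factors of the mitoribosome had a median log2 ratio of −0.75 at 18 h, lower than that of all genes by 0.28. With the deposited scaling 9 of 26 measured genes were below −1 (15.8% of all genes) and all 26 below 0 (78.3% of all genes), and 3 were below −1 with median centring or quantile normalization. MTERF3 had 1263, 1165, 537.4 and 416.5 at 0, 6, 12 and 18 h (−1.60). The RNA helicase DDX28 had −1.49, FASTKD2 −1.29, the ribosomal RNA methyltransferases MRM3 and MRM2 −1.29 and −1.20, GTPBP6 −1.20, MTG1 −1.12 and the helicase DHX30 lay just below −1. MPV17L2 had −2.45, but its signals of 21.5 at 12 h and 27.3 at 18 h are below the lowest mean signal kept. At the other end were RBFA at −0.21 and METTL15 at −0.08.

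Mitochondrial translation factors had a median of −0.77 at 18 h, lower than that of all genes by 0.30. Of 12 measured, 4 were below −1 (15.8% of all genes), and 1 was with median centring or quantile normalization. TACO1, an activator of the translation of cytochrome c oxidase subunit I, had 423.4, 249.0, 217.4 and 138.5 at 0, 6, 12 and 18 h (−1.61). Of the elongation factors, TSFM had −1.34, GFM1 −1.22 and TUFM −0.58, and the elongation factor GUF1 had −1.11. Of 9 genes for mitochondrial transcription and RNA handling, 3 were below −1 with the deposited scaling (15.8% of all genes). They were the RNA exonuclease PNPT1 (−1.34), the transcription factor TFB2M (−1.31) and the helicase SUPV3L1 (−1.01). Other scalings were not run for this list, but median centring takes a shift of −0.45 out of every 18 h ratio. TFAM, which packs and transcribes mitochondrial DNA, had −0.89, and the polymerase POLRMT −0.87.

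The other large families of the ribosome and the respiratory chain differed in size from the mitoribosomal group. Cytosolic ribosomal proteins, measured through 52 genes, had medians of −0.09, −0.21 and −0.34 at 6, 12 and 18 h, with none below −1. At 18 h they were higher than the median of all genes by 0.12, and centring the arrays turned their median to 0.11. Most of them lie among the brightest probe sets of the array, 45 with a mean signal of at least 8192. These 45 had a median of −0.34 at 18 h, and the 58 other genes as bright one of −0.33. How far brightness bears on the ratio was not tested. Nuclear genes for complex I of the respiratory chain (NDUF symbols, 32 genes) had medians of 0.05, −0.30 and −0.63, with 1 below −1, NDUFS6 at −1.11. At 18 h the complex I median was lower than that of all genes by 0.16, and that of the mitochondrial ribosomal proteins by 0.51.

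**Figure D5:**
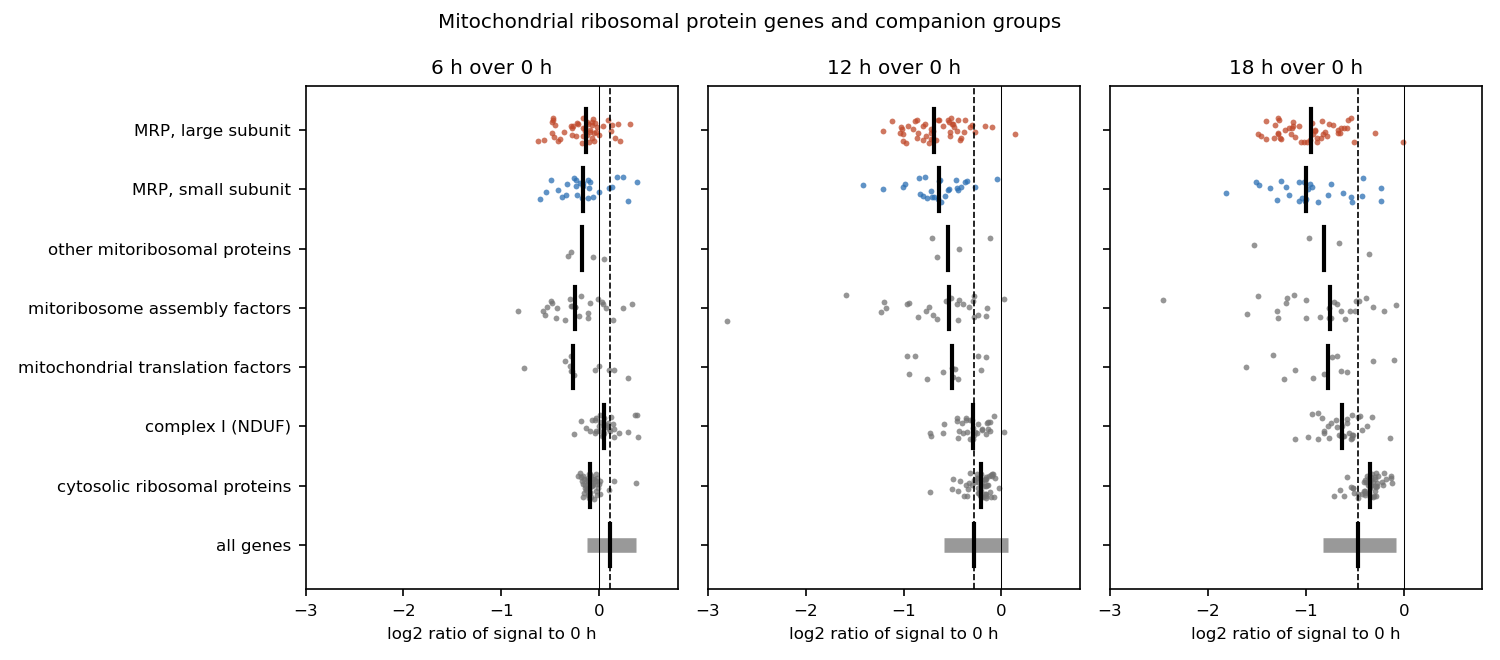
Log2 ratios to 0 h after 6, 12 and 18 h of MTA, 1 point per gene, for mitochondrial ribosomal protein (MRP) genes and companion groups, with black bars for group medians. The grey bar at the bottom spans the quartiles of all genes, and the dashed line marks their median. With the deposited scaling the MRP medians of −0.95 and −0.99 at 18 h lie left of those of complex I (−0.63) and cytosolic ribosomal proteins (−0.34), whose sign turns with centring.

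The promoters of the group were read for short motifs of factors known to drive nuclear genes for mitochondria. NRF1, the ETS factor GABP, YY1 and the coactivators of the PGC‐1 family act on such genes, and MYC raises mitochondrial biogenesis in growing cells. RefSeq promoter sequences (GRCh38.p14, 250 bases before to 50 after the start) matched 67 of the 75 genes, 41 of the large and 26 of the small subunit. Both strands were searched for each motif.

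The ETS core CCGGAAG was in 28 of the 67 promoters (41.8%), in 10.7% of 27305 promoters of all genes and in 20.7% of 8687 promoters of genes with a kept probe set. The YY1 core AAGATGGC was in 19 (28.4%), in 3.03% of all promoters and in 5.85% of those of kept genes. Its matches had a median position of 10 bases after the start, and those of CCGGAAG one of −22. At least 1 of both motifs was in 39 promoters, against 13.1% of all, and 8 held both. Neither count was set against kept genes, 20.7% of which already have CCGGAAG, and no background was counted for the 8. Other motifs were no more frequent than among kept genes. The NRF1 motif CGCANGCG was in 13 (19.4%, against 10.6% of all and 20.2% of kept genes), the E‐box CACGTG bound by MYC in 6 (8.96%, against 7.43 and 10.7%), the GC box GGGCGG in 40 (59.7%, against 44.6 and 71.7%) and TATAAA in 2 (2.99%, against 12.0 and 5.11%). The end of CCGGAAG can be the start of AAGATGGC, but no member has the pair in overlap. A match describes the sequence and does not show a bound site.

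By motif, genes with CCGGAAG had a median log2 ratio of −0.90 at 18 h and those without it −1.05. For AAGATGGC the medians were −0.99 with and −0.97 without, and for CGCANGCG −0.94 and −0.98. These medians carry no error, and whether a motif goes with the ratio was not tested.

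Printed below are 150 bases around the start, 120 before and 30 after, of the 3 members with the lowest and the 3 with the highest ratio at 18 h that have an entry, so that both ends of the group can be read side by side. Capitals mark CCGGAAG and AAGATGGC on either strand, where CTTCCGG is the reverse complement of the ETS core.
MRPS26 (chr20:3045932-3046081, plus strand): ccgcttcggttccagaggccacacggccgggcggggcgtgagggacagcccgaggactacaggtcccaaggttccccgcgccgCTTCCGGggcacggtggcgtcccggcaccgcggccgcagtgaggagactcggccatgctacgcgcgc
MRPS12 (chr19:38930824-38930973, plus strand): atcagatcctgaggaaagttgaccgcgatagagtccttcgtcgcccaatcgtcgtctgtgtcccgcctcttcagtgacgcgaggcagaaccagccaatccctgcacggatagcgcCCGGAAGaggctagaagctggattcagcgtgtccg
MRPL46 (chr15:88467359-88467508, minus strand): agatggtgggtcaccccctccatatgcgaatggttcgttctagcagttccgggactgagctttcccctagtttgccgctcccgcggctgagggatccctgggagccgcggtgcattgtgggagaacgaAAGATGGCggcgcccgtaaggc
MRPS21 (chr1:150293741-150293890, plus strand): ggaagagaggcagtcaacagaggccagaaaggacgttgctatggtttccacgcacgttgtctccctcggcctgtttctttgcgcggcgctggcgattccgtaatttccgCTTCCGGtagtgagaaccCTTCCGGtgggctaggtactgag
MRPS18B (chr6:30617720-30617869, plus strand): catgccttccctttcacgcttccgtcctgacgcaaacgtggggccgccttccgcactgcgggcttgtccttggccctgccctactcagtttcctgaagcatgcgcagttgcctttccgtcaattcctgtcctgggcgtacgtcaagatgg
MRPL28 (chr16:370509-370658, minus strand): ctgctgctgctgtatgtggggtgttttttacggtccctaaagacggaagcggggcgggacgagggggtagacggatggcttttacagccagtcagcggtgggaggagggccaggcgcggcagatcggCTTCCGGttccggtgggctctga
The ETS core stands close to the start in MRPS26 and MRPS12 at the low end and in MRPS21, with 2 copies, and MRPL28 at the high end. MRPL46 has the YY1 core just after its start. MRPS18B has no capital here because its YY1 core runs past the printed end.

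Several members share their start region with a gene on the opposite strand. Overlapping promoter windows were found for 15 pairs of a member and another protein‐coding gene, and 12 of these partners were on kept probe sets. At 18 h the members of these pairs had a median log2 ratio of −0.97 and the partners −0.58, and the member was the lower in 11 of 12 pairs. This count has no background, and 69 of all 75 members lay below the median of all genes (−0.47). Genes in the middle of the members' signal range had a median of −0.58, like the partners. MRPS12 (−1.51) and SARS2, the mitochondrial seryl‐tRNA synthetase (−1.27), start 181 bases apart on chromosome 19, and SARS2 was the 1 partner below −1. MRPS18C (−0.99) faces the DNA helicase HELQ (0.51), which was the 1 partner above 0. The exception was MRPS27 (−0.43), whose partner PTCD2 was the lower (−0.79). A pair of members, MRPL46 (−1.49) and MRPS11 (−0.95), start 320 bases apart on chromosome 15.

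The factors themselves had different ratios. PPRC1, a coactivator of the PGC‐1 family, had signals of 482.8, 295.1, 165.9 and 125.8 at 0, 6, 12 and 18 h, for a log2 ratio of −1.94. MYC had 7421, 4211, 3032 and 2459 (−1.59), and PPARGC1B, another coactivator of this family, had 224.8, 143.1, 91.3 and 87.6 (−1.36). With the deposited scaling all of these had lower signals at each successive time, as did 27.5% of all genes. The last step of PPARGC1B, from 91.3 to 87.6, was small, and other scalings were not run for these factors. GABPB1 had −0.84, ESRRA −0.79, YY1 −0.57 and NRF1 −0.51, each below the median of all genes (−0.47). GABPA, the DNA‐binding part of GABP, had −0.10, above that median. GABPB1, ESRRA, YY1, NRF1 and GABPA all lay nearer to that median than the SD of 0.479 between probe sets of genes of all kinds. PPARGC1A was not on a kept probe set. Any part of these factors in the signals of the mitochondrial ribosomal protein genes was not tested.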

How the data were processed

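Gene expression was measured on 4 Affymetrix U133 Plus 2.0 arrays of RCM‐1 cells, 1 each for 0, 6, 12 and 18 h of 1 mM MTA. The authors deposited linear MAS5 intensities made with Affymetrix Expression Console. For its version and scaling target, nothing is given in the sources used here. After removal of 62 control probe sets, the probe sets were ranked by mean log2 signal, and from the top as many were kept as the study counts as detected. Signals were used as scaled by the authors, with no pseudocount, for log2 ratios to 0 h. Probe sets were named through the GEO platform annotation. Updating symbols through the RefSeq table of GRCh38.p14 added no member.

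The study's limit is a log2 ratio of 1.5, and here 1 was used. The members named were the 10 lowest and 10 highest at 18 h, the 3 of highest mean signal per subunit, those whose 2 brightest probe sets differed by over 0.5, the ones not kept, and genes of the stalk, tunnel exit, decoding centre and S18 paralogs, with MRPS30. Companion genes named were those beyond 1, the other mitoribosomal proteins, the regulators and, chosen after their values were seen, single genes at the ends of lists and head‐to‐head partners. Members and lists were chosen with earlier results of these data known. Alternatives were other scalings (median centring, quantile, poly‐A and hybridization controls and, chosen after seeing the data, a trimmed mean without 2% at each end), filters, a pseudocount of 2.9, probe set rules and limits. Calculations were tested on simulated data. With 1 array per time no p‐value is given, and precision is limited by the number of arrays. Python 3.11.15, NumPy 2.4.6, pandas 2.3.3 and matplotlib 3.10.9 were used.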

Additional observations from a re-analysis of the deposited data

How the results depend on the processing

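The median log2 ratio of the mitochondrial ribosomal protein genes at 18 h was below 0 under every alternative run, and relative to all genes it was lower by 0.39 with quantile normalization, 0.51 with the deposited scaling and 0.66 without a filter. It was −0.53 with median centring, −0.38 with quantile normalization and −0.47 with the trimmed mean. The number of these genes below −1 depended on the scaling. At 18 h it was 5 with centring, 1 with quantile normalization, 17 with poly‐A controls and 1 with the trimmed mean, against 35 with the deposited scaling. At 12 h it was 1 with centring, quantile normalization, hybridization controls and the trimmed mean, against 10. With a limit of 1.5 it was 0 at 12 h and 2 at 18 h, and with 0.5 it was 4, 53 and 69 at 6, 12 and 18 h. Counting the pseudogene and the antisense transcript gave 1 at 6 h. With centring the medians at 18 h were −0.37 for the other mitoribosomal proteins, −0.30 for assembly factors (3 genes below −1), −0.32 for translation factors (1 below −1), 0.11 for cytosolic ribosomal proteins and −0.18 for complex I (0 below −1). With quantile normalization they were −0.22 (0 below −1), −0.22 (3 below −1), −0.21 (1 below −1) and −0.053 for complex I (0 below −1). Of 255 medians and counts, 222 moved by less than the spread between probe sets or by under 1.5 times, as did 140 of 251 values of single genes. Scalings that shift a whole array leave shifts from all genes and differences between subunits unchanged, so part of the 222 could not move. Some alternatives, such as updated symbols, returned the same values. The spread of 0.373 also exceeds every difference between subunit medians, so their turns of sign count as unmoved. The causes of the moves were not tested. No paired analysis was possible because each time has 1 array. Without replicates the variation between cultures is unknown.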
